A study of Mus musculus with 8 samples.

Results

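The IGF1 axis described here comprises the ligand Igf1, the receptors Igf1r and Insr, the docking protein Irs1 and the binding proteins Igfbp2, Igfbp3, Igfbp4, Igfbp5, Igfbp6 and Igfbp7. The members were taken by gene symbol from a list of these names, and all 10 of 10 were found among the 18770 genes measured. IGF1 is a small peptide that activates the IGF1 receptor, a tyrosine kinase closely related to the insulin receptor, and the activated receptors signal through docking proteins such as IRS1 to the PI3K-AKT and RAS-MAPK pathways. Secreted binding proteins hold IGF in the extracellular space and can limit or prolong its action, and proteases release it by cutting them. In skin, IGF1 made by dermal cells, the dermal papilla among them, acts on hair follicle keratinocytes and is known to favour the growth phase of the hair cycle.

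Messenger RNA was sequenced from the dorsal skin of wildtype C57BL/6 mice (C57BL/6J in the study's methods) aged 7 to 8 weeks, sampled at D4 after depilation, which sets resting follicles into growth. The interfollicular epidermis was taken off, so that dermis with hair follicles was measured. The AP group (4 libraries) received alpinetin, a plant flavonoid, on the skin dissolved at 3 mg/ml in 65% ethanol, 20 µl per application, and the vehicle group (VC, 4 libraries) received the same volume of the 65% ethanol. Both groups were depilated, so the comparison is between alpinetin in vehicle and vehicle alone after depilation. Within each group the libraries carry the numbers 1 to 4 (VC.1, AP.1 and so on), and per-library values below follow that order. For a heat map of its sequencing data the study states 4 mice in each group, but these numbers could not be tied to single mice, and p-values measure the spread between these libraries. Reads on the listed genes numbered 6454563 to 7264151 per library in VC and 8507783 to 11190113 in AP. The mitochondrially encoded share of these reads was 48.4% ± 5.81 (SD, n = 4) in VC and 8.66% ± 2.63 (SD, n = 4) in AP. This left 3080758 to 3762217 reads per library for all other genes in VC and 7561598 to 10594787 in AP. Depth and mitochondrial share thus differed along with treatment, and their part in the values below cannot be told apart from that of alpinetin. Values below are normalized counts (reads divided by a size factor of the library) unless another unit is named, and log2 fold changes are the AP minus the VC mean of log2(value + 1), except where DESeq2 or edgeR is named with the value.

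Of the 10 members, 1 passed an adjusted p of 0.05 in limma, the receptor gene Igf1r, which was higher in AP. This is 10% of the members, beside 10.3% of the 15964 genes tested, so the share of members that passed was that of the table as a whole. Among all genes tested 6.33% passed with a higher and 4% with a lower value in AP. For 1 of the 10 members, again Igf1r, AP and VC values did not overlap, beside 19.2% of all genes tested. All 10 members passed the filter on low values. The log2 fold change was above 0 for 7 members and below 0 for 3, with a median of 0.41 beside 0.06 over all genes tested. An unadjusted p under 0.05 in limma was reached by 4 members, Igf1r, Insr and Igfbp3 with higher means in AP and Igf1 with a lower mean, beside 30.3% of all genes tested.

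**Figure D1:**
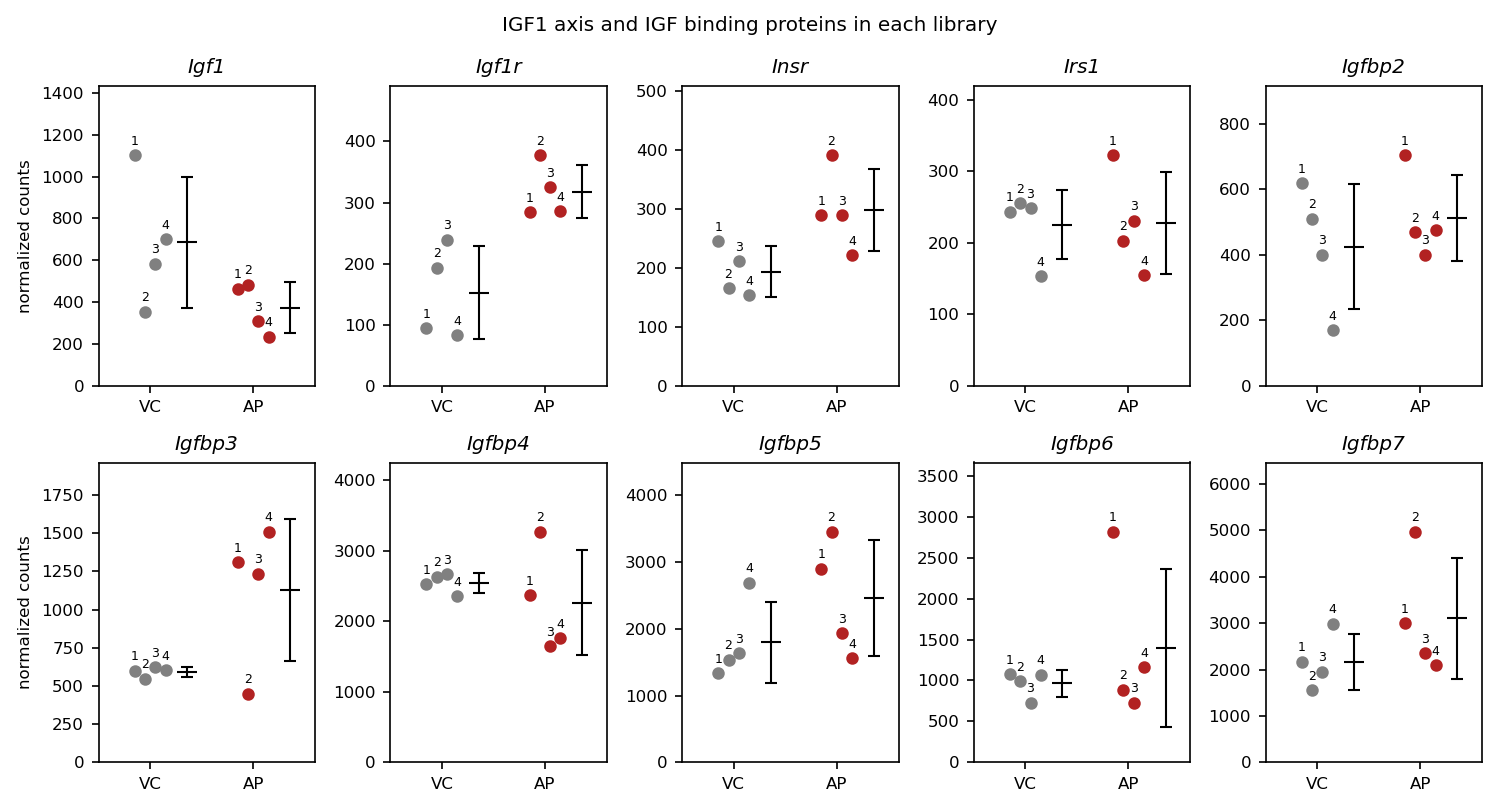
Normalized counts (vertical axes, each from 0) of the 10 members in the VC (grey) and AP (red) libraries. Each point is a library with its number beside it, and the black marks give the mean and SD of 4 libraries. The AP libraries of Igf1r lie between 284 and 377, above all VC libraries, and those of every other member overlap with VC.

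The ligand gene Igf1 (ENSMUSG00000020053, chr10:87858265-87937042, plus strand, GRCm38) had 1102, 355, 584 and 701 normalized counts in the VC libraries. Its AP values were 465, 484, 309 and 235. VC.1 was the highest library and AP.4 the lowest, and VC.2 lay inside the AP range, so the groups overlapped. The mean was 686 ± 313 (SD, n = 4) in VC and 373 ± 121 (SD, n = 4) in AP. On the log2 scale the fold change was -0.82 (SE 0.33, 95% interval -1.54 to -0.10), and the difference did not pass adjustment over all genes (limma, adjusted p = 0.120). A two-sided exact permutation test of the 8 values gave p = 0.114. Without VC.2 the log2 fold change was -1.10 and passed (limma adjusted p = 0.0449), whereas without VC.1 it was -0.56 (0.263) and without AP.4 -0.62 (0.281). Over 22 alternatives the adjusted p ranged from 0.0449 to 0.901. With the length trend removed, as described with Igf1r, the value was -1.12 (limma adjusted p = 0.0657). Scaling by total counts, which raised the median of all genes by 0.84, turned the value to 0.05, and relative to that median it was -0.85, beside -0.88 with the deposited factors.

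Cell types known to make Igf1 in skin were followed with marker genes. In tissue samples of this kind, fewer cells of a type and less RNA per cell cannot be told apart. All 10 macrophage markers had a log2 fold change below 0, with a median of -0.78. None of the 10 passed in limma, 5 had an unadjusted p under 0.05, and DESeq2 called 2 lower and edgeR 0. With 1 library left out, 1 passed as lower without VC.1, VC.2 or VC.3 and 2 without AP.1. Their summed level was 9945, 5709, 5250 and 14338 in the successive VC libraries and 7714, 4977, 3494 and 3752 in those of AP. VC.4 and VC.1, the libraries with the most macrophage marker RNA, were also those with the most Igf1, and AP.3 and AP.4 were lowest for both. The order was not the same throughout, since AP.1 had more macrophage marker RNA than VC.3 but less Igf1. C1qa, a complement gene, was the most abundant of these markers with a mean of 1845 in VC and 937 in AP. The 10 dermal papilla markers all lay below 0 as well, with a median of -0.75, and 3 of them passed as lower in limma, Crabp1, Rspo3 and Wif1. With 1 library left out, 1 passed without AP.2 or AP.3, 0 without AP.4, 2 without VC.2 or VC.4, and 3 in the other cases. Their sum was 2114, 2428, 2936 and 3773 in the successive VC libraries and 1157, 1133, 1570 and 1041 in those of AP. VC.1, the library with the most Igf1, had the lowest of the VC sums. The sum in every AP library was below that in every VC library, and the most abundant marker, Crabp1, had 471, 535, 602 and 2254 in the successive VC libraries, with VC.4 far above the others, and 169, 269, 130 and 140 in those of AP. Of the 10 fibroblast markers, 6 lay above 0 and none passed in limma, while 2 had an unadjusted p under 0.05, DESeq2 called 1 lower, as did limma without AP.1, and edgeR called 0. Their sum was 124240, 84388, 86727 and 229902 in the successive VC libraries and 260339, 193926, 140141 and 101048.5 in those of AP, led by the collagen gene Col1a1, and the groups overlapped. No marker of these 3 lists was at 0 in any library. The part of macrophages, dermal papilla cells and fibroblasts in the Igf1 values was not tested.

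The receptor gene Igf1r (ENSMUSG00000005533, chr7:67952827-68233668, plus strand) had 94.6, 194, 239 and 82.5 normalized counts in the VC libraries. In AP the values were 284, 377, 325 and 285. The VC libraries split into VC.1 and VC.4 at low and VC.2 and VC.3 at higher values, while the AP libraries lay close together and all above VC. The mean was 152 ± 76.2 (SD, n = 4) in VC and 318 ± 43.9 (SD, n = 4) in AP, and Igf1r rose by a log2 fold change of 1.19 (SE 0.32, 95% interval 0.49 to 1.89, limma adjusted p = 0.0386). The two-sided exact permutation p was 0.0286, the smallest that 4 libraries against 4 allow. These values rest on 44 to 175 reads in the VC and 392 to 700 in the AP libraries. The study's text does not name Igf1r. Its sequencing results come from these same data, so the study gives no independent evidence for the direction of Igf1r here.

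The Igf1r call lay near the threshold. Its direction held in 22 of 22 alternatives and it passed in 13, with adjusted p between 0.00209 and 0.105. It no longer passed in limma without VC.1 (adjusted p = 0.0890), VC.4 (0.0714), AP.2 (0.101), AP.3 (0.105) or AP.4 (0.0835), nor in edgeR (0.0505). The value also moved with gene length. Igf1r has 16791 bases of merged exons, beside a median of 4104 over all genes tested. Among genes with a mean of at least 50 normalized counts, those in the tenth with the longest exons had a median log2 fold change of 0.38 and those in the tenth with the shortest had -0.35. With the length trend of each library removed, Igf1r had a log2 fold change of 0.75 and did not pass (limma adjusted p = 0.0991). The part of transcript length in the Igf1r value was not tested further.

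Insr (ENSMUSG00000005534, chr8:3122061-3279617, minus strand) encodes the insulin receptor, which also pairs with the IGF1 receptor in hybrid receptors. It had 246, 166, 212 and 154 normalized counts in the successive VC libraries and 290, 391, 290 and 222 in those of AP. AP.2 was highest and VC.4 lowest, and the groups overlapped where VC.1 exceeded AP.4. Its log2 fold change was 0.61 (SE 0.22, 95% interval 0.13 to 1.10) and did not pass (limma adjusted p = 0.0902). Its exons are also long, at 13746 bases, and with the length trend removed the value was 0.23 (limma adjusted p = 0.507).

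The ratio of both receptors within a library does not depend on how libraries are scaled. The log2 ratio of Igf1r to Insr was -1.38, 0.23, 0.18 and -0.90 in the successive VC libraries and -0.03, -0.05, 0.16 and 0.36 in those of AP. AP.4 lay above all VC libraries, and the other AP libraries lay between the low pair VC.1 and VC.4 and the high pair VC.2 and VC.3. The difference of 0.58 did not exceed the spread (two-sided exact permutation p = 0.343, adjusted over 2 ratios 0.343).

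Epidermal markers differed in the same libraries as Igf1r, although the epidermis between the follicles had been taken off. All 10 suprabasal keratinocyte markers lay above 0 with a median log2 fold change of 3.25, and 9 passed as higher in limma, or 7 to 10 with 1 library left out. Their sum was 5586, 11943, 8154 and 5351 in the successive VC libraries and 41858, 39753, 117893 and 165123 in those of AP. VC.1 and VC.4, the VC libraries with the least Igf1r, were also lowest here, but AP.4, the highest, was not the AP library with the most Igf1r. Krt10, a keratin of differentiating epidermis, led this list with a mean of 2376 in VC and 38536 in AP. All 10 basal keratinocyte markers also lay above 0, with a median of 1.05, and 5 passed as higher, but 2 without VC.1, VC.4, AP.3 or AP.4 and 3 without AP.2, in edgeR or with the length trend removed. Their sum was 26305, 81200, 50048 and 23404 in the successive VC libraries and 54188, 56547, 101379.5 and 145526.5 in those of AP, so the groups overlapped, and the keratin Krt14 was the most abundant. No marker of either list was at 0 in any library, and the part of keratinocytes in the Igf1r value was not tested.

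Irs1 (ENSMUSG00000055980, chr1:82233101-82291416, minus strand), the docking protein that the activated receptors phosphorylate, had 244, 256, 249 and 154 normalized counts in the VC libraries. The AP values were 323, 203, 231 and 154. The lowest libraries of both groups, VC.4 and AP.4, had nearly the same value, and AP.1 was highest. The fitted log2 fold change was -0.01 (SE 0.25, limma adjusted p = 0.990), and its 95% interval from -0.56 to 0.54 bounds the difference. A value so near 0 changed sign without VC.1 (0.04), VC.2 (0.06), VC.3 (0.05), AP.2 (0.03) or AP.4 (0.16), and was -0.29 with the length trend removed (limma adjusted p = 0.475). The log2 ratio of Igf1r to Irs1 was -1.37, -0.40, -0.06 and -0.90 in the successive VC libraries and -0.18, 0.89, 0.49 and 0.89 in those of AP. AP.1 lay inside the VC range and the other AP libraries above it. The difference of 1.20 did not pass (two-sided exact permutation p = 0.0571, adjusted over 2 ratios 0.114).

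Levels of different genes were compared per kilobase of merged exons. In VC the order from high to low was Igfbp7, Igfbp6, Igfbp4, Igfbp5, Igfbp2, Igfbp3, Igf1, Irs1, Insr and Igf1r. Igfbp7 averaged 1794 ± 497 (SD, n = 4) normalized counts per kilobase in VC and Igf1r 9.08 ± 4.54 (SD, n = 4). Igfbp7, Igfbp6 and Igfbp4 did not overlap with their neighbours in this order, whereas Igfbp5 overlapped with Igfbp2 and Igfbp2 with Igfbp3. Igf1, at 69.2 ± 31.6 per kilobase (SD, n = 4), lay apart from Igfbp3 above and Irs1 below, and Irs1, Insr and Igf1r overlapped from neighbour to neighbour. In AP the order was the same but for Igfbp3, which stood above Igfbp2, and the single neighbours whose ranges did not overlap there were Igfbp2 and Igf1. Igf1r averaged 18.9 ± 2.61 (SD, n = 4) per kilobase in AP and Insr 21.7 ± 5.09 (SD, n = 4), and these ranges overlapped. With the length of the longest transcript in place of merged exons, 6 of the 10 members kept their place in the order over all 8 libraries. Within each of the 8 libraries, all 6 binding proteins measured here had a higher level per kilobase than Igf1.

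Igfbp3 (ENSMUSG00000020427, chr11:7206086-7213923, minus strand), the main carrier of IGF in blood, had 600.3, 547, 623 and 602 normalized counts in the VC libraries. The AP libraries had 1311, 449.7, 1235 and 1509. The VC libraries lay close together, AP.1, AP.3 and AP.4 were all above them, and AP.2 was below all of VC. The mean was 593 ± 32.4 (SD, n = 4) in VC and 1126 ± 466 (SD, n = 4) in AP. The log2 fold change of 0.79 (SE 0.32, 95% interval 0.10 to 1.48) did not pass (limma adjusted p = 0.120). This rested on AP.2, without which the log2 fold change was 1.18 and passed (limma adjusted p = 0.00577). DESeq2 with all libraries also passed (adjusted p = 0.0298), and over the 22 alternatives the adjusted p ranged from 0.00200 to 0.279. AP.2 differed from the other AP libraries in endothelial markers too, as given with Igfbp7.

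Igfbp4 (ENSMUSG00000017493, chr11:99041244-99054392, plus strand), which inhibits IGF1 until pappalysins cut it, had 2527, 2632, 2667 and 2355 normalized counts in the VC libraries. Its AP values were 2367, 3267, 1646 and 1758. AP.3 and AP.4 lay below all VC libraries and AP.2 above them. On the log2 scale the fold change was -0.22 (SE 0.21, limma adjusted p = 0.502), and scaling by total counts turned it to 0.65, which is -0.25 relative to the median of all genes on that scale. Without AP.2 the value was -0.42, without AP.3 -0.09 and without AP.4 -0.12, and none of these passed.

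Igfbp5 and Igfbp7 are secreted by mesenchymal and vascular cells, and IGFBP7 binds IGF only weakly. Igfbp5 (ENSMUSG00000026185, chr1:72857932-72874884, minus strand) had 1333, 1538, 1632 and 2689 normalized counts in the successive VC libraries and 2902, 3456, 1934 and 1561 in those of AP. Its highest libraries, AP.2, AP.1 and VC.4, were also the highest in summed fibroblast markers, and AP.3 and AP.4 overlapped with VC. Its log2 fold change was 0.44 (SE 0.28, limma adjusted p = 0.314), and it was 0.25 without AP.2 and 0.28 with the length trend removed. Igfbp7 (ENSMUSG00000036256, chr5:77349240-77408041, minus strand) had 2174, 1561, 1955 and 2985 in the successive VC libraries and 2998, 4969.7, 2350.2 and 2096 in those of AP. AP.2 was the highest library by far, and the groups overlapped. The fitted log2 fold change was 0.47 (SE 0.28, limma adjusted p = 0.273), but 0.22 without AP.2 and 0.71 with the length trend removed, and neither passed.

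All 10 endothelial markers lay above 0 with a median log2 fold change of 1.41, and 3 passed as higher in limma, Pecam1, Cdh5 and Flt1. With 1 library left out this count was 1 without VC.1, 2 without VC.2 or any of AP.2, AP.3 and AP.4, and 5 without VC.3 or VC.4, and DESeq2 called 8 of the 10 higher. Their sum was 1577, 1619.6, 3243 and 2914 in the successive VC libraries and 4640.3, 10917, 3927 and 4255 in those of AP. AP.2 held by far the most endothelial marker RNA, as it did for Igfbp7, while it held the least Igfbp3 of all libraries. Vwf, a clotting protein of vessel walls, was the most abundant, and no marker was at 0 in any library. The part of endothelial cells in the Igfbp7, Igfbp5 and Igfbp3 values was not tested.

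Igfbp6 (ENSMUSG00000023046, chr15:102144362-102149511, plus strand), which prefers IGF2 to IGF1, had 1077, 995, 728 and 1069 normalized counts in the VC libraries. In AP the values were 2816, 887, 726 and 1165. AP.1 alone was high, and the other AP libraries lay within or close to the VC range. The log2 fold change was 0.34 (SE 0.35, limma adjusted p = 0.544), and without AP.1 it was -0.07 (limma adjusted p = 0.854). It was also 0.58 without AP.3, 0.21 without VC.3 and 0.57 with the length trend removed, and none of these passed. AP.1 also had the largest fibroblast marker sum of all libraries. VC.4 and AP.2, next in that sum, had Igfbp6 values of 1069 and 887. The part of fibroblasts in the Igfbp6 values was not tested.

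Igfbp2 (ENSMUSG00000039323, chr1:72824503-72852474, plus strand) lies 5457 bases from Igfbp5, and the genes face each other with their 3′ ends. It had 618, 509.8, 400.1 and 171 normalized counts in the successive VC libraries and 704, 469, 401 and 475 in those of AP. VC.4 alone was low, and all other libraries of both groups lay between 400.1 and 704. On the log2 scale the fold change was 0.38 (SE 0.35, limma adjusted p = 0.480) and -0.0032 without VC.4. Dropping VC.1 gave 0.61 and dropping AP.1 gave 0.22. The neighbours did not follow each other, since VC.4 was the lowest library for Igfbp2 and the highest VC library for Igfbp5.

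The makeup of the binding proteins was described as the share of each in their sum per kilobase. Igfbp4 held 14.0, 17.1, 16.9 and 11.4% of the sum in the VC libraries. It held 7.85, 11.2, 9.55 and 9.53% in AP.1 to AP.4. Every AP library had a smaller Igfbp4 share than every VC library, with VC.4 and AP.2 nearly touching. Igfbp4 was the single binding protein of 6 whose shares did not overlap between groups. By normalized counts, 19.2% of all genes tested did not overlap. Igfbp4 was singled out after the values were seen, with no test. Its share also depends on the other binding proteins, and its own normalized counts overlapped between groups and did not pass (limma adjusted p = 0.502). Igfbp7 held the largest share in 7 of 8 libraries, 44.7% ± 6.38 (SD, n = 4) in VC and 47.4% ± 11.2 (SD, n = 4) in AP. In AP.1 Igfbp6 held slightly more, 37.1% beside 36.3% for Igfbp7. Igfbp3 held 4.84% ± 0.621 (SD, n = 4) in VC and 7.49% ± 4.22 (SD, n = 4) in AP, where AP.2 at 2.17% was below all VC libraries. The sum over the 6 binding proteins was 3958 ± 559 (SD, n = 4) normalized counts per kilobase in VC and 5384 ± 1556 (SD, n = 4) in AP, with overlapping libraries.

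**Figure D2:**
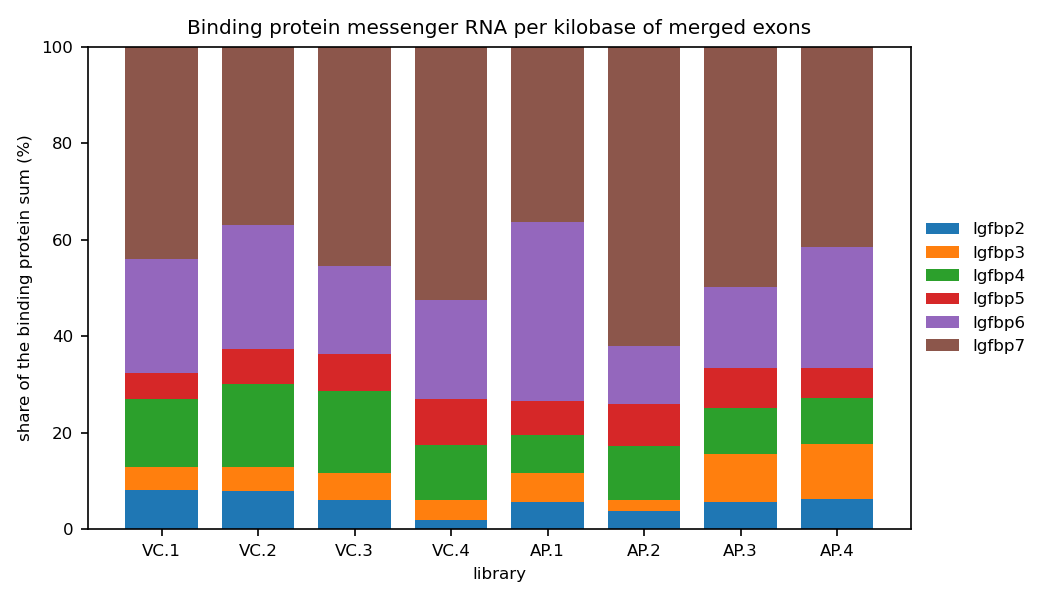
Share of each of 6 binding proteins (percent, vertical axis) in their summed normalized counts per kilobase of merged exons, 1 bar per library. The Igfbp4 share lies between 11.4 and 17.1% in VC and between 7.85 and 11.2% in AP.

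The stretch before the start of transcription was compared for the member that rose and for the binding protein whose share was smaller in AP. RefSeq starts on GRCm38.p6 matched 9 of the 10 members, in 10 windows of 250 bases, and Insr had no entry. The letters GGGCGG, on either strand, were in 4 of these windows (Igf1r, Irs1, Igfbp2 and Igfbp7), beside 32.7% of all 32851 windows, and TATAAA in 2 (Igfbp4 and Igfbp6), beside 12.4%. GTAAACA and TTCNNNGAA were in 0 of the 10, beside 3.17% and 7.02%. These are matches of letters, not known binding sites. The Igf1r window (chr7:67952007-67952256, plus strand) has a GC content of 77.6% and the Igfbp4 window (chr11:99040994-99041243, plus strand) 69.2%, beside a median of 52.4% over all windows. Neither overlaps an annotated exon. Capitals mark GGGCGG in Igf1r and TATAAA in Igfbp4, and both sequences run 5′ to 3′.
Igf1r: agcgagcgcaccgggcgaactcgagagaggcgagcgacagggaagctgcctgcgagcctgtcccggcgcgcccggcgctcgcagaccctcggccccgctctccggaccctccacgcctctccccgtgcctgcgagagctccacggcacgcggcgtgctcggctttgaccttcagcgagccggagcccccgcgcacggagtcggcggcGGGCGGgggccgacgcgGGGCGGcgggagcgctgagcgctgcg
Igfbp4: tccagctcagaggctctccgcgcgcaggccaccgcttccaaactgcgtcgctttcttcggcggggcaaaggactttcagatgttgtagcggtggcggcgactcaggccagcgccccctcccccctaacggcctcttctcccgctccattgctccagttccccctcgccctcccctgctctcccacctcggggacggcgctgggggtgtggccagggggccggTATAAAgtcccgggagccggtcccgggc

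Other genes of the pathway came from 6 lists, chosen with earlier results of these data known. Of their 81 genes tested, 12 passed in limma (14.8%, beside 10.3% of all genes tested), 11 as higher and 1 as lower. The median log2 fold change of the 81 genes was 0.12, beside 0.06 over all genes. Their exons were long, with a median of 5663 bases beside 4104 over all genes tested. With the length trend removed, 11 passed, 8 as higher and 3 as lower. The part of length in these counts was not tested further. Without AP.2, AP.3 and AP.4 in turn, 6, 1 and 5 of the 81 passed, beside 553, 303 and 393 of all 15964 genes tested. In the IGF and insulin family, 1 of 4 genes tested passed, Irs2, the sister docking protein of IRS1. Irs2 had 94.6, 117, 91.5 and 161 normalized counts in the successive VC libraries and 238, 243, 291 and 187 in those of AP. All AP libraries were above VC, and Irs2 rose by a log2 fold change of 1.06 (SE 0.23, limma adjusted p = 0.0212). It passed with the length trend removed as well, at 0.88 (limma adjusted p = 0.0405), but not without AP.2 (0.0591), where Igfals passed as lower in its place, or AP.3 (0.0812). Igf2r, the scavenging receptor of IGF2, was the most abundant of this list per kilobase and did not pass (0.66, limma adjusted p = 0.130). The second ligand gene, Igf2, had at most 8 reads in any library and Insrr at most 2, and neither passed the filter on low values.

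Among 7 genes that process binding proteins, 2 rose. Stc1, a stanniocalcin that inhibits pappalysins, had 34.6, 60.6, 47.8 and 20.6 normalized counts in the successive VC libraries and 121, 157, 115 and 84.4 in those of AP. All AP libraries were above VC, with a log2 fold change of 1.59 (SE 0.35, limma adjusted p = 0.0226) that did not pass without AP.2 (0.0691) or AP.3 (0.0733). Adamts1, a secreted metalloprotease, rose by 1.16 (SE 0.23, limma adjusted p = 0.0167), from a mean of 281 ± 95.3 (SD, n = 4) in VC to 608 ± 98.8 (SD, n = 4) in AP. Pappa, the pappalysin that cuts IGFBP4, was named after its values were seen. It had 36.4, 39.9, 16.4 and 41.2 in the successive VC libraries and 74.7, 115, 98.2 and 41.5 in those of AP. The groups did not overlap, though AP.4 hardly exceeded VC.4, and the value of 1.26 did not pass (limma adjusted p = 0.0681), though DESeq2 called it higher. The most abundant of the list per kilobase was the serine protease gene Htra1, with a log2 fold change of -0.01 (limma adjusted p = 0.988).

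In growth hormone signalling, the route that drives Igf1 transcription in liver, 1 of 8 genes passed. Socs3, a feedback inhibitor of JAK-STAT signalling and the most abundant of this list per kilobase, had 104, 93.1, 302 and 95.6 normalized counts in the VC libraries. The AP values were 646, 372, 523 and 365. VC.3 stood above the other VC libraries but below all of AP, and Socs3 rose by 1.83 on the log2 scale (SE 0.36, limma adjusted p = 0.0152). Without AP.3 it did not pass (limma adjusted p = 0.0517). Socs1, a related inhibitor named after its values were seen, was lower in every AP library than in every VC library, with a log2 fold change of -0.91 that did not pass (SE 0.28, limma adjusted p = 0.0598). DESeq2, edgeR and voom called it lower, as did limma without VC.1.

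In PI3K-AKT-mTOR signalling, 6 of 27 genes passed. Mtor, the growth-controlling kinase, had 129, 192, 117 and 124 normalized counts in the successive VC libraries and 243, 334, 349.8 and 293 in those of AP. All AP libraries were above VC, and Mtor rose by 1.13 (SE 0.21, limma adjusted p = 0.0130). Pdpk1, the kinase that activates AKT, rose by 0.96 (SE 0.19, limma adjusted p = 0.0166). The phosphatase genes Inpp4b and Phlpp1, whose products oppose AKT signalling, rose by 1.42 (SE 0.33, limma adjusted p = 0.0253) and 1.27 (SE 0.29, limma adjusted p = 0.0252). Gsk3b, a kinase that AKT inhibits, rose by 0.62 (SE 0.17, limma adjusted p = 0.0414), although VC.3 and AP.1 overlapped. Akt1, the most abundant of the list per kilobase, did not pass (-0.29, limma adjusted p = 0.263). With the length trend removed, Gsk3b and Inpp4b did not pass (limma adjusted p = 0.191 and 0.0625), and Mtor, Pdpk1 and Phlpp1 did. Without AP.3, 0 of these 27 genes passed in limma, with adjusted p of 0.0518 for Mtor, 0.0630 for Pdpk1, 0.0812 for Inpp4b, 0.0849 for Phlpp1 and 0.131 for Gsk3b. Without AP.4, Mtor alone passed. Without AP.2, Inpp4b (limma adjusted p = 0.0844), Phlpp1 (0.0782) and Gsk3b (0.105) did not pass. Without VC.1, Phlpp1 (0.0531) and Gsk3b (0.0832) did not. Gsk3b also did not pass without VC.2 (0.0690) or VC.4 (0.0733).

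Of 21 adaptor and RAS-MAPK genes, 2 rose, while DESeq2 called 5 higher. Crkl, an adaptor protein gene, rose by 1.10 (SE 0.28, limma adjusted p = 0.0331). It did not pass without VC.1 (limma adjusted p = 0.0706), VC.4 (0.0558), AP.2 (0.0920), AP.3 (0.0998) or AP.4 (0.0748). Mapk3, the most abundant of the list per kilobase, had a log2 fold change of -0.24 (limma adjusted p = 0.232). Of 14 FOXO factors and their known targets, 0 passed in limma, DESeq2 or edgeR, and 3 had an unadjusted p under 0.05 in limma, all with lower values in AP. Without AP.1, 1 of the 14 passed as lower. The most abundant there per kilobase was Txnip, an inhibitor of thioredoxin, at 0.45 (limma adjusted p = 0.229).

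**Figure D3:**
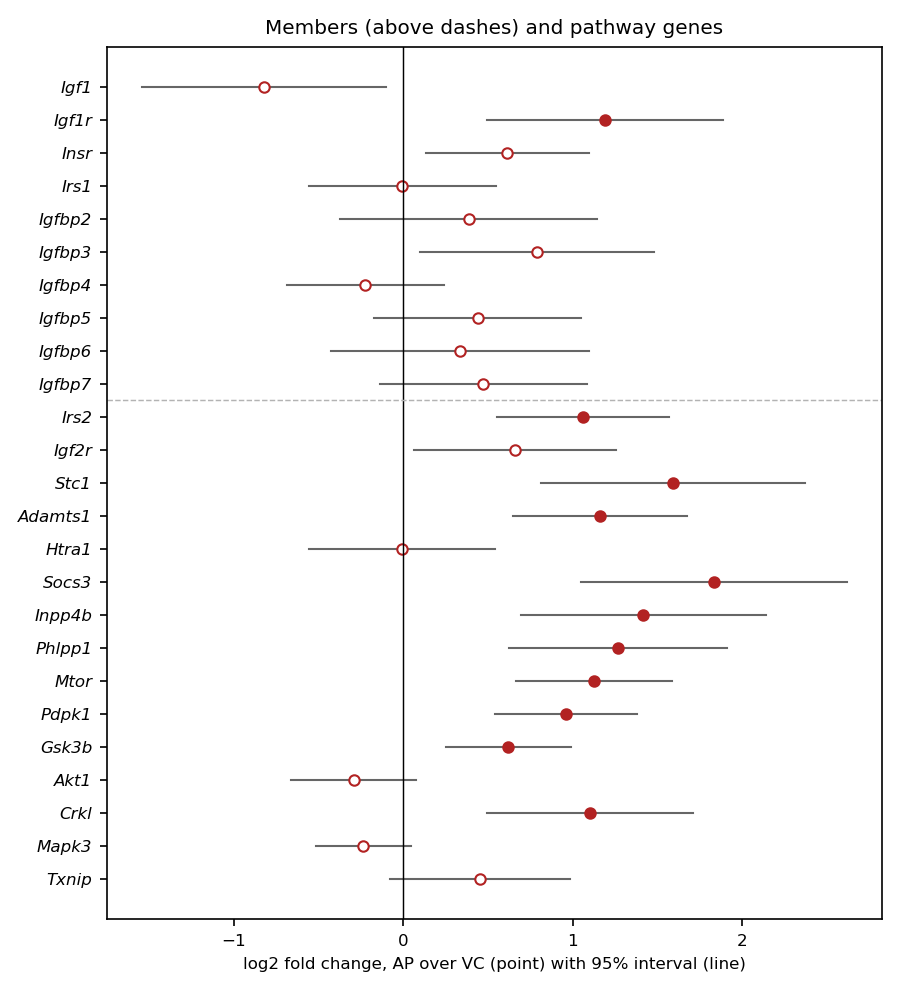
Log2 fold change (horizontal axis, AP over VC) of the 10 members and 15 pathway genes, with the 95% interval of the limma fit as a line. Filled points passed an adjusted p of 0.05. Igf1r at 1.19 is the filled point among the members, and Socs3 at 1.83 is the filled point farthest to the right.

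The genes most like each member over the 8 libraries were found by the root mean square difference of log2 values centred on each gene's mean, among 11256 other genes with a mean of at least 50. Closest to Igf1r were Etl4 (0.12), Galnt4 (0.16) and Plec (0.17), beside a median difference of 0.82 over all genes. Closest to Igf1 were Celf2 (0.20), Gxylt2 (0.20) and Hoxd3os1 (0.21), the last an antisense gene whose reads cannot be told apart from those of its partner where counting ignores strand. Insr was closest to Tbck, Trio and Nbas (0.15 to 0.16) and Irs1 to Mlycd, Nrbp2 and Zfp799 (0.18 to 0.20). Among the binding proteins, Igfbp5 was closest to Uba7 (0.08), Lama4 (0.14) and Man1c1 (0.15), and Igfbp7 to Hip1 (0.13), Ripor1 (0.14) and Ntrk2 (0.16). Igfbp4 was closest to Slc25a10, Tst and Kif3c (0.13 to 0.15) and Igfbp2 to Cgrrf1, Nrcam and Kyat3 (0.15 to 0.23). Igfbp6 was closest to Angptl7, Ccn5 and Il1r2 (0.20 to 0.29) and Igfbp3 to Clip4, Prob1 and Zfc3h1 (0.23 to 0.32). Between members, Igfbp5 and Igfbp7 were the most alike (0.22), and Igfbp7 ranked 29 among all genes by likeness to Igfbp5. Insr, the member most like Igf1r, ranked 1641.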

How the data were processed

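The authors aligned the reads to mm10 with STAR, counted them per gene (featureCounts in the study's methods, HTSeq in the submitters' processing notes) and deposited signal values that are read counts divided by a DESeq2 size factor per library. All 150160 values were whole reads within 0.01 read, so reads could be recovered. The columns of the authors' own comparison (fold changes and p-values) were not used. Here limma 3.58.1 in R 4.3.3 fitted log2(value + 1) with an intensity trend for 15964 genes, those at 3 or more normalized counts in 4 or more libraries, with Benjamini-Hochberg adjustment over these genes. Alternatives were DESeq2 1.42.0 and edgeR 4.0.16 on the recovered reads, other scalings, filters and pseudocounts, a length trend (loess, span 0.3) removed, and each library left out. Single ratios were compared by exact permutation over 70 assignments. Of 18770 identifiers, 18766 were in GENCODE M21, which gave positions and exon lengths. In simulated counts with 200 changed genes among 15964, the limma fit called 169 of the changed genes and 9 unchanged genes. The simulation held no length trend and no deviating library, so it did not test the fit under these. The members and lists were chosen with earlier results of these data known. Named genes are the members, in each pathway list up to 6 genes that passed and the most abundant per length, the 3 genes most like each member, and in each marker list the most abundant gene and any at or under 3 reads in every library. Other named genes were chosen after their values were seen, and 2 pathway genes that meet the rule are not reported here.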

Additional observations from a re-analysis of the deposited data

Results flagged for a closer look

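In 70 groups of 4 values (10 members, 2 ratios, 17 pathway genes and 6 binding protein shares, in each treatment group), 5 had a library far from the others, and chance gives about 1 in 20. For Irs1, VC.4 at 154 lay below 244 to 256 in the other VC libraries, a gap of 0.883 of the range. For Gsk3b, VC.3 at 409.6 lay above 309 to 325 (0.843), and AP.1 at 408 lay below 551 to 572 (0.866). For Mtor, VC.2 at 192 lay above 117 to 129 (0.843). For Socs3, VC.3 at 302 lay above 93.1 to 104 (0.949).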

How the results depend on the processing

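Of all genes, 1650 passed in limma (61.3% higher in AP), and 1715 in edgeR. The count was 3039 with DESeq2, 592 without the intensity trend, 8727 with total counts, and 303 (without AP.3) to 1899 (without AP.1) with 1 library left out. The share of higher genes was 99.2% with total counts, 47.9% with voom and 52.2% with upper-quartile factors. Members that passed numbered 2 with DESeq2 (Igf1r and Igfbp3), 9 with total counts, and 0 with edgeR, without the intensity trend, with total counts that leave out mitochondrially encoded genes, and with the length trend removed. With 1 library left out they numbered 0 to 2, and without AP.2 the member that passed was Igfbp3. Pathway genes that passed numbered 12, or 20 with DESeq2, 61 with total counts, and 1 to 14 with 1 library left out. With total counts, which raised the median of all genes by 0.84, Igf1 had 0.048, Igfbp4 0.65 and Irs1 0.86, or -0.85, -0.25 and -0.039 relative to the median there. Irs1, near 0 in the main fit, changed sign with DESeq2 (0.013), edgeR (0.0060), total counts without mitochondrially encoded genes (0.035), reads drawn to the same depth (0.018), and with 1 library left out (-0.19 to 0.16). Igfbp2 ranged from -0.0032 to 0.61 and Igfbp6 from -0.072 to 0.58 with 1 library left out. By longest transcript, 6 of 10 members kept their place in the order of levels. The receptor ratios kept their direction, at 0.28 to 0.81 for Igf1r to Insr and 0.97 to 1.44 for Igf1r to Irs1 with 1 library left out. The causes of these changes were not tested. No paired analysis was possible because the sample titles share no numbers between groups and the library numbers match no title. Depth limited Igf1r most in VC.4, with 44 reads.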

Other observations

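The marker lists not named so far were read in the same fit. Of 10 skeletal muscle markers, all lay below 0 and 1 passed as lower. All 10 passed without AP.1, 7 in voom, and 0 in DESeq2, in edgeR, with the length trend removed or with any other single library left out. Their sum was 49826, 76408, 39365 and 38093 in the successive VC libraries and 73896, 9698, 5679 and 12369 in those of AP, so AP.1 lay among the VC libraries, and Acta1 was the most abundant. AP.1 was also the library with high Igfbp6. Of 8 mural and smooth muscle markers, 3 passed as higher (2 to 4 with 1 library left out). Des, the most abundant, averaged 3515 in VC and 1881 in AP, did not pass (log2 fold change -1.33, limma adjusted p = 0.105) and passed as lower without AP.1. Of 10 adipocyte markers, led by Cfd, 0 passed in limma, DESeq2 or edgeR and 2 had an unadjusted p under 0.05. Of 8 hair follicle stem cell markers, led by Krt15, 0 passed in limma, DESeq2 or edgeR and 1 had an unadjusted p under 0.05. Of 5 red blood cell markers tested, 1 passed as higher, Hbb-bs, the most abundant, but 0 without VC.1, AP.2 or AP.4, and DESeq2 also called 1 lower. Of 12 mitochondrially encoded genes tested, 10 passed as lower, or 6 without AP.2 or AP.3 and 12 in DESeq2, edgeR or voom. All 12 had every AP library below every VC library. The most abundant, mt-Co1, averaged 2250984 in VC and 222086 in AP and did not pass in limma (log2 fold change -3.37, 95% interval -6.88 to 0.14, adjusted p = 0.180). The part of these cell types in the values of the IGF1 axis was not tested.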
